A study of Mus musculus with 8 samples.

Results

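The genes described here encode the kinetochore, the centromere and the spindle checkpoint, 39 in all. They were chosen by name, from a list of gene symbols, with earlier results of these data known. All 39 were on the array, each with 1 probe set, among the 19938 genes tested.

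The kinetochore is the protein assembly that forms on each centromere in mitosis and captures the microtubules of the spindle. It stands on chromatin that holds Cenpa, the centromeric form of histone H3, and is built from an inner network of Cenp proteins and an outer, microtubule-binding layer. Kinetochores that lack attached microtubules recruit Bub and Mad proteins, which hold back the anaphase-promoting complex until every chromosome is attached. Transcripts of many of these genes are most abundant late in the cell cycle, shortly before and during mitosis.

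RNA was hybridised to 8 Affymetrix arrays. It came from C57Bl6 mice, from primary smooth muscle cells of the aorta that were used at passage 3 to 4 and grown in DMEM with 10% fetal calf serum. The 4 control samples came from cells without further addition, and the other 4 from cells given 100 nM jasplakinolide for 24 h. Jasplakinolide is a sponge compound that enters cells and stabilises filamentous actin. The labels do not say whether samples of a group came from separate cultures or animals, so the p-values measure only how far these samples vary, and this spread may be technical. Values are log2 expression levels made with RMA (robust multi-array average), and the number of arrays limits their precision. The question the comparison addresses is how this treatment changes transcript levels in these cells.

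The label was checked against markers of the cell type. The mean level of 10 contractile smooth muscle markers was 10.34 to 10.45 log2 on the control arrays and 10.71 to 10.87 with jasplakinolide. All 10 lay above 6.75 log2, the level below which 95% of 1015 olfactory receptor genes lay. With jasplakinolide 5 of the 10 rose, against 0.436% of all genes tested. The largest rises were those of Cnn1 (calponin, 1.34 ± 0.07 log2, SE), Myh11 (smooth muscle myosin heavy chain, 0.81 ± 0.08) and Lmod1 (leiomodin, 0.68 ± 0.07). Of the 5, Acta2 lost its call whichever array was left out. All 12 endothelial markers were above that level too, as were all 8 macrophage and 4 of 6 fibroblast markers. On the control arrays the mean level of the endothelial list was 10.68 to 10.73 log2, above that of the smooth muscle list. With jasplakinolide it was 10.47 to 10.60, below that of the smooth muscle list. Of its 12 genes 1 fell (Robo4, -0.41 ± 0.06), against 0.336% of all genes. With the replicate number as a block 3 fell, against 1.08% of all genes, with Kdr and Tek added. At an unadjusted p under 0.05, 6 of the 12 were lower, against 4.71% of all genes. Robo4 lost its call in 4 of the 8 fits without one array (limma, adjusted p 0.0580 to 0.0729). These were the fits without control 3, control 4, jasplakinolide 1 or jasplakinolide 2. The macrophage list was at 7.81 to 7.91 and 7.82 to 7.90, and the fibroblast list at 8.21 to 8.41 and 8.09 to 8.21, with none of their genes past the test. At an unadjusted p under 0.05, 1 macrophage marker was lower (Cd68) and 2 were higher (Lyz2 and Itgam), and 2 fibroblast markers were lower (Dcn and Dpt); Cd68 and Dcn passed with the block. The part of these other cell types in the results below was not tested. In bulk samples, fewer cells of a type and less RNA per cell cannot be told apart. Control 2 and jasplakinolide 4 stood apart from the other arrays: their median olfactory receptor signals were 5.05 and 5.05 log2, against 4.92 to 4.97 elsewhere.

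Most kinetochore genes had slightly lower means with jasplakinolide, and 4 of the 39 fell: the kinetochore motor Cenpe, the large coiled-coil protein Cenpf, the checkpoint kinase-like protein Bub1b and the centromeric histone Cenpa. None rose, and 35 did not pass the test (limma, adjusted p under 0.05). Of all genes tested, 0.336% fell. The 4 falls were 1.23-fold to 1.32-fold, so all of them were small. With the replicate number as a block 9 members fell, against 1.08% of all genes. The added 5 were Knl1, Ndc80, Kntc1, Bub1 and Sgo2a.

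Nearly the whole list had lower means. The mean was lower with jasplakinolide for 37 of the 39 members, against 43.6% of all genes, and for 37 or 38 of them after median centring, a second quantile normalization or cyclic loess. The median log2 difference was -0.26, that is 1.20-fold lower, and the median over all genes was 0.01. At an unadjusted p under 0.05, 28 members were lower, against 4.71% of all genes. In 14 members all treated arrays lay below all control arrays, against 3.29% of all genes. The 4 called members were among these 14, and the other 10 did not pass the test.

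**Figure D1:**
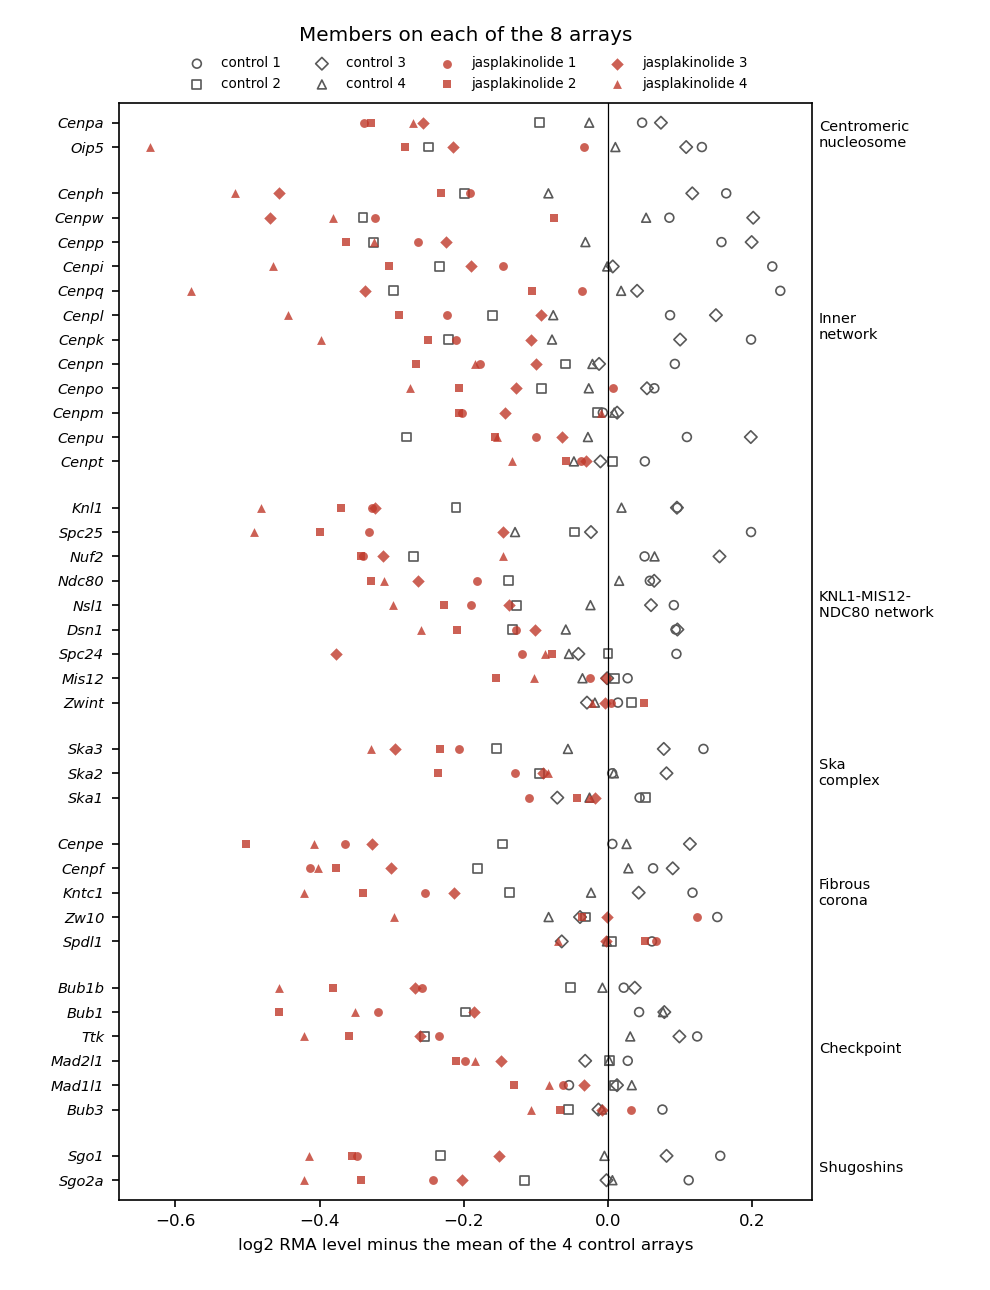
Log2 RMA level of each member on each of the 8 arrays minus the mean of the 4 control arrays (x axis), by role in the kinetochore (y axis); open symbols are control and filled symbols jasplakinolide, with one shape per replicate number. In 14 of the 39 members the filled symbols all lie to the left of the open ones, and control 2 (open square) is the lowest control in 29.

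The call depended on single arrays. Without control 2, 10 members fell, against 0.416% of all genes. Without any other single array, none of the 39 did (limma; lowest adjusted p = 0.0587, without jasplakinolide 4), although 20 to 26 were lower at an unadjusted p under 0.05, against 3.52% to 5.04% of all genes. At the adjusted threshold, the percentage of all genes that fell was 0.1 without control 1, 0.0451 without control 3, 0.0401 without control 4, 0.0502 without jasplakinolide 1, 0.0451 without jasplakinolide 2, and 0.0903 each without jasplakinolide 3 and without jasplakinolide 4. The median difference of the members stayed between -0.32 and -0.19. Without control 2 and jasplakinolide 4 together 6 members fell, against 0.286% of all genes, with a median of -0.26. Each of the fits had fewer arrays than the full comparison.

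The mean level of the 39 genes on each array shows the same pattern. It was 9.37 log2 in control 1, 9.16 in control 2, 9.34 in control 3 and 9.27 in control 4. It was 9.11 in jasplakinolide 1, 9.05 in jasplakinolide 2, 9.11 in jasplakinolide 3 and 8.99 in jasplakinolide 4. The groups did not overlap, and control 2 was closest to the treated arrays. Control 2 was the lowest control in 29 of the 39 genes, and jasplakinolide 4 the lowest treated array in 22. Both are the arrays with the highest olfactory receptor signal, and its part in the result was not tested.

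Same-numbered arrays correlated positively once group means were subtracted, so the differences were also read within pairs. Control 2, however, correlated more with jasplakinolide 4 (r = 0.52) than with jasplakinolide 2 (0.24). In pair 1, 38 of the 39 members were lower with jasplakinolide (median -0.28), against 46.2% of all genes. In pair 4 all 39 were (-0.27), against 45.2%. In pair 3, 34 were lower (-0.23), against 43.0%. Pair 2 showed the smallest shift, with 34 lower and a median of -0.10. In that pair 54.2% of all genes were lower, with a median over all genes of -0.0125. In all 4 pairs 31 members were lower, against 11.5% of all genes, and 6 were lower in 3 pairs. The remaining 2 were Zwint, lower in 2 pairs, and Spdl1, lower in 1.

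Stretches upstream of the starts of 3 of the fallen genes and of Zwint, the gene with the smallest difference, are shown. The reason is that most members had lower means and that many late cell cycle genes share promoter elements. Whether such elements had a part in the differences was not tested. The CHR element (cell cycle genes homology region) is bound by MuvB complexes, and CCAAT boxes are bound by NF-Y. Each line runs 5′ to 3′ in the direction of the gene, from 200 bases before its RefSeq start to 30 bases after it. Capitals mark the letters of CHR (TTTGAA or TTCGAA) and of CCAAT on either strand. Only fallen genes with CHR letters in their window are shown, so these letters in the 3 follow from the choice. Cenpe, which also fell, held none and is left out.
Cenpf, chr1:189688057-189688286, minus strand: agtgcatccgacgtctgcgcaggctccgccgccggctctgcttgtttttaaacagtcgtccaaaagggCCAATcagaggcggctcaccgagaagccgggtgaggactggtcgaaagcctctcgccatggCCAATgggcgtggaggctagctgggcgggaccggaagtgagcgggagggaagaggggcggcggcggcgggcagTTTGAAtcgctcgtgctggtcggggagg
Bub1b, chr2:118598011-118598240, plus strand: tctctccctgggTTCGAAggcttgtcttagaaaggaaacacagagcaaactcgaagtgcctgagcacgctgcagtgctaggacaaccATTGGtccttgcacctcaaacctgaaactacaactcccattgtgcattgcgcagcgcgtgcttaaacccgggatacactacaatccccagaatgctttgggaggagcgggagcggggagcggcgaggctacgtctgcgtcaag
Cenpa, chr5:30666686-30666915, plus strand: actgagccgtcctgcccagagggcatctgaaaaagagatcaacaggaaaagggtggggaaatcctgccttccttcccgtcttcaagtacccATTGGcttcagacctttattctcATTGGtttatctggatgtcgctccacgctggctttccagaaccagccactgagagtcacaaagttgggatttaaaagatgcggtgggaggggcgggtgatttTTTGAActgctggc
Zwint, chr10:72654646-72654875, plus strand: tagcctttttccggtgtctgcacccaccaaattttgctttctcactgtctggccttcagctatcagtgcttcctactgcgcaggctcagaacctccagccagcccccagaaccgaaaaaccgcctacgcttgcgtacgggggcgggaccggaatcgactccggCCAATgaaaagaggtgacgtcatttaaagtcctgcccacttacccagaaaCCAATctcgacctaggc
Sequences and coordinates are those of RefSeq on GRCm38.p6. In Cenpf the CHR letters began 3 bases and in Cenpa 17 bases into the transcribed part, each downstream of 2 CCAAT matches. Bub1b held CHR letters at -188 and again at 41, beyond the stretch shown. Zwint held 2 CCAAT matches and no CHR letters in its window.

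Over the whole list, 36 of the 39 members matched the RefSeq table, with 41 windows of 300 bases (250 before and 50 after a start). Windows of one gene can overlap, as those of Bub3 do. CHR letters were in 48.8% of these windows, against 19.2% of the 32851 windows of all genes. CCAAT was in 70.7% against 37.4%, and both together in 39% against 7.52%. Letters of an E2F site were searched on either strand as TTCCCGC, as TTCGCGC, as TTGCCGC and as TTGGCGC, and were in 26.8% against 9.57%. CHR and CCAAT matches shared letters in Kntc1 and Cenpw, and CCAAT and E2F matches in Ska2. A match is a description of letters, not of a bound site.

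The members were then read by these letters, with no test. The 19 members with CHR letters in any window had a median log2 difference of -0.30, and the 17 without had -0.19. Of the first group 3 fell (7 with the block), and of the second 1 fell (2 with the block). Of all genes tested, 0.336% fell (1.08% with the block). Medians were -0.29 for the 25 members with CCAAT and -0.19 for the 11 without it. For E2F letters the order was the other way, with -0.17 for the 11 members that held them and -0.29 for the 25 that did not. Exceptions stood on both sides. Cenpe had the largest fall of all members but no CHR letters in its window, while Spdl1, Bub3 and Zw10 held them and differed by 0.01, -0.04 and -0.05.

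**Figure D2:**
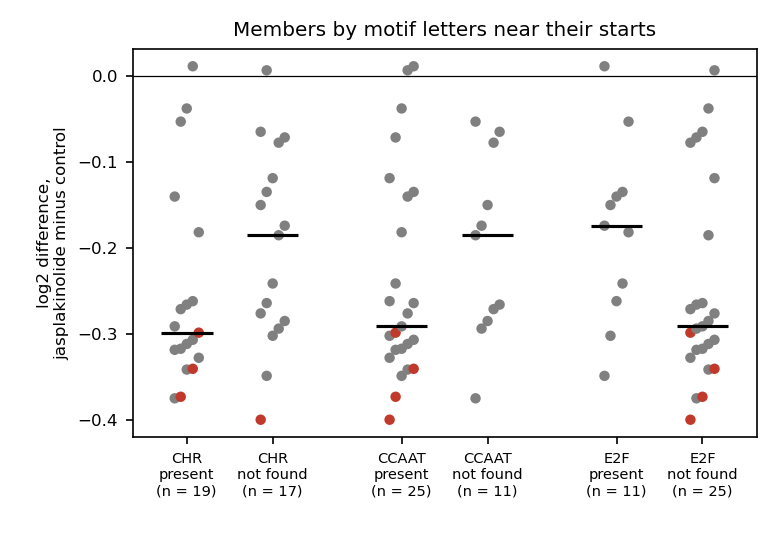
Log2 difference, jasplakinolide minus control (y axis), of the 36 members with a RefSeq window, split by whether CHR, CCAAT or E2F letters are found in any window of the gene (x axis); each point is a gene, red where it fell, and lines are medians. Members with CHR letters have a median of -0.30 and those without -0.19, with wide overlap.

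The centromeric nucleosome was represented by its histone and by a factor that loads it. Cenpa measured 10.81, 10.67, 10.84 and 10.74 log2 in controls 1 to 4. In jasplakinolide 1 to 4 it measured 10.42, 10.43, 10.50 and 10.49. The treated values lay closely together and below every control value. Cenpa fell by 0.30 ± 0.05 on the log2 scale (SE; adjusted p = 0.0349, and 0.0331 with the block). It kept its call without control 2 (adjusted p = 0.0244) and lost it without any other single array (0.0762 to 0.125). Oip5, a subunit of the Mis18 complex that prepares centromeres for new Cenpa, measured 8.54, 8.16, 8.52 and 8.42 in controls 1 to 4. In the treated arrays it measured 8.38, 8.13, 8.20 and 7.78. The groups overlapped, with jasplakinolide 4 far below the rest. Its mean difference of -0.29 ± 0.13 (SE) was close to that of Cenpa but did not pass (adjusted p = 0.551).

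The constitutive inner network sits on the centromere through the whole cell cycle, and none of its 12 measured subunits passed the test, with or without the block. All 12 nevertheless had a lower mean with jasplakinolide, against 43.6% of all genes. Their median log2 difference was -0.25, with a range of -0.35 to -0.06. Control 2 was the lowest control in 11 of the 12 genes. The median standard error in this group was 0.09, against 0.07 over all genes. In 20 fits, namely the one reported and 19 alternatives, Cenpp was the only subunit of this network to pass, once, without control 2 (adjusted p = 0.0416).

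Cenph had the largest difference of the inner network. It measured 8.68, 8.32, 8.63 and 8.43 log2 in controls 1 to 4, and 8.32, 8.28, 8.06 and 8.0 in jasplakinolide 1 to 4. Its treated values reached the level of control 2, and the difference was -0.35 ± 0.10 (SE; adjusted p = 0.226). Its partners in one subcomplex, Cenpi, Cenpk and Cenpm, differed by -0.28 ± 0.10, -0.24 ± 0.10 and -0.14 ± 0.05 (SE). Cenpm was at 9.64 to 9.67 in the controls and 9.45 to 9.51 in 3 treated arrays, but jasplakinolide 4 stood at 9.65, inside the control range.

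Cenpl and Cenpn form the pair that binds the Cenpa nucleosome. Cenpn was the one subunit of the network whose groups did not overlap, at 10.29 to 10.44 log2 in control and 10.08 to 10.25 with jasplakinolide. It differed by -0.18 ± 0.05 and Cenpl by -0.26 ± 0.09 (SE). In the subcomplex of Cenpo, Cenpp, Cenpq and Cenpu the differences were -0.15 ± 0.07, -0.29 ± 0.11, -0.26 ± 0.14 and -0.12 ± 0.09 (SE). Cenpt and Cenpw are histone-fold proteins that touch DNA, and Cenpt also recruits the Ndc80 complex. Cenpw differed by -0.31 ± 0.12 and Cenpt by -0.06 ± 0.04 (SE), and the difference between both was not tested. Cenpt measured 10.36, 10.31, 10.29 and 10.26 in controls 1 to 4 and 10.27, 10.25, 10.27 and 10.17 in the treated arrays, so that the groups overlapped.

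The KNL1-MIS12-NDC80 network is the part of the kinetochore that holds microtubules. None of its 9 measured members passed without the block, and Knl1 and Ndc80 did with it, when 1.08% of all genes fell. The median log2 difference of the network was -0.21, and 8 of the 9 means were lower, against 43.6% of all genes. Groups did not overlap in 5 members, all lower, namely Knl1, Ndc80, Spc24, Spc25 and Nsl1. Of all genes, 3.29% were lower with no overlap.

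Knl1, the scaffold on which Bub proteins gather, measured 10.16, 9.85, 10.16 and 10.08 log2 in controls 1 to 4. With jasplakinolide it measured 9.73, 9.69, 9.74 and 9.58. All treated values were below the lowest control, control 2. The difference was -0.38 ± 0.07 (SE), with an adjusted p of 0.0627 and of 0.0461 with the block. It passed in 9 of the 20 fits. Zwint, its partner, had the smallest difference of all members. Its levels were 12.07, 12.09, 12.03 and 12.04 in controls 1 to 4 and 12.06, 12.11, 12.05 and 12.03 in the treated arrays. The groups coincided, and the 95% interval of the difference ran from -0.08 to 0.10.

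Within the Ndc80 complex, Ndc80 and Nuf2 form the end that binds microtubules, and Spc24 and Spc25 the end that anchors it. Ndc80 differed by -0.27 ± 0.06 (SE; adjusted p = 0.0870, and 0.0389 with the block) and Nuf2 by -0.29 ± 0.09 (adjusted p = 0.290). Spc25 differed by -0.34 ± 0.09 and Spc24 by -0.17 ± 0.07 (SE). Of the Mis12 complex, which links the inner and outer layers, Nsl1 differed by -0.21 ± 0.06, Dsn1 by -0.17 ± 0.07 and Mis12 itself by -0.07 ± 0.05 (SE).

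The Ska complex strengthens the grip of kinetochores on microtubules, and none of its 3 members passed in any of the fits. Ska3 had the largest difference. It measured 9.40, 9.11, 9.35 and 9.21 log2 in controls 1 to 4 and 9.06, 9.03, 8.97 and 8.94 with jasplakinolide. The groups were apart, by a small margin at control 2, and the difference was -0.27 ± 0.07 (SE; adjusted p = 0.151). Ska2 differed by -0.13 ± 0.05 (SE). Ska1, at 6.94, 6.94, 6.82 and 6.87 in controls 1 to 4 and 6.78, 6.85, 6.87 and 6.87 in the treated arrays, lay close to the olfactory receptor level of 6.75. Its difference was -0.05 ± 0.05 (SE), and the groups overlapped.

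**Figure D3:**
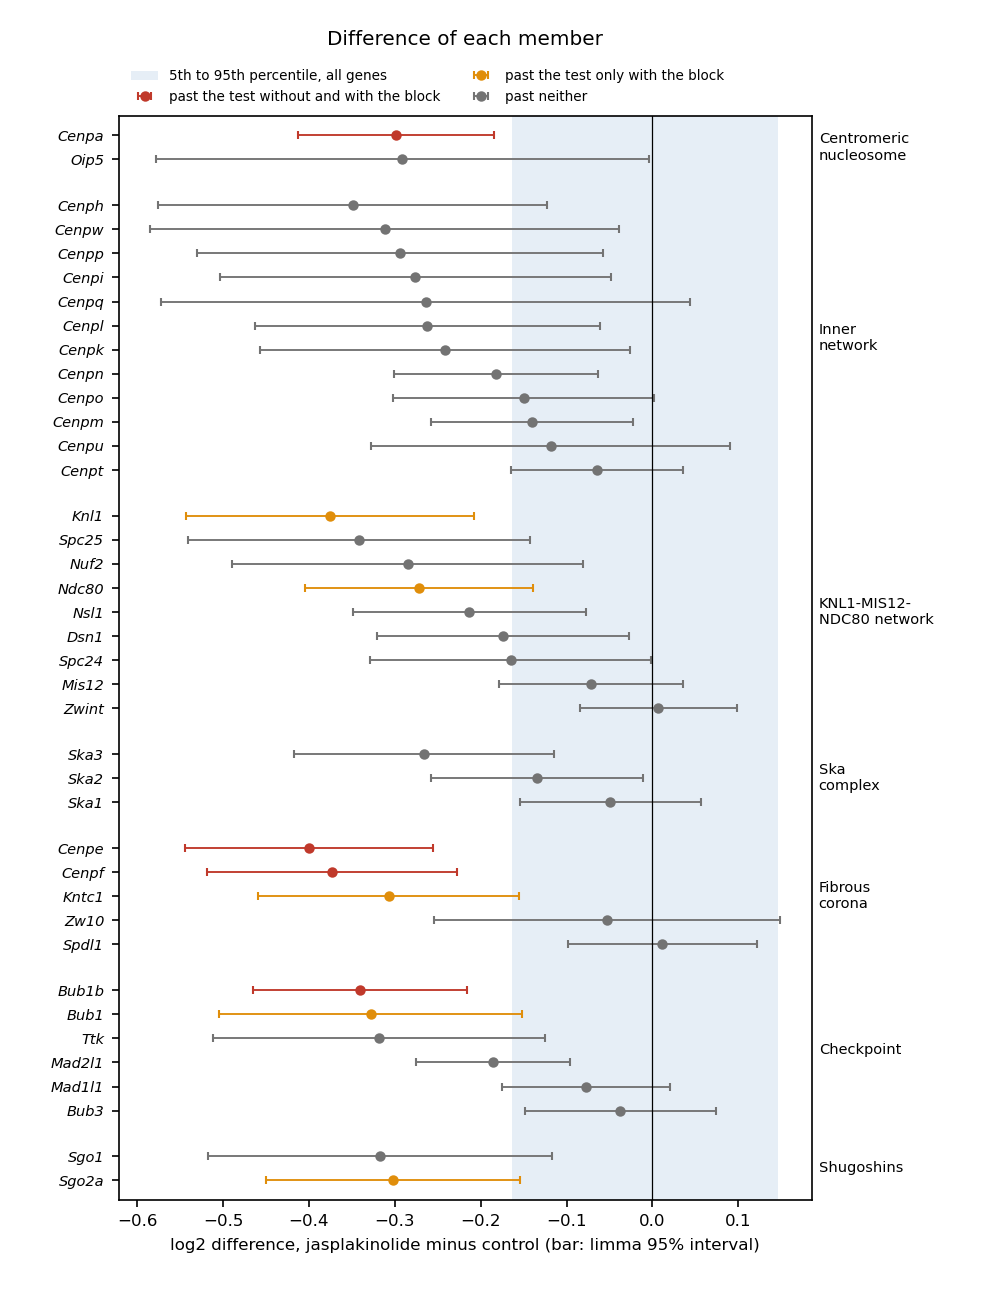
Log2 difference, jasplakinolide minus control, with its 95% interval from limma (x axis) for each member by role (y axis); colours give the calls with and without the replicate block, and the shaded band holds the middle 90% of all genes. The 4 called members lie left of the band, between -0.40 and -0.30, and Zwint and Spdl1 lie at 0.01.

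The fibrous corona is the outermost layer of the kinetochore and held the 2 largest falls among the 4 called members. Cenpe, the kinesin that carries chromosomes towards the middle of the spindle, measured 10.19, 10.04, 10.30 and 10.21 log2 in controls 1 to 4. With jasplakinolide it measured 9.82, 9.68, 9.86 and 9.78. The highest treated value was well below the lowest control. Cenpe fell by 0.40 ± 0.06 on the log2 scale (SE; adjusted p = 0.0308, and 0.0134 with the block). Of all genes tested, 0.431% had a lower difference. Cenpe passed in 13 of the 20 fits, more than any other member. Among the fits that leave out one array it passed without control 2 (adjusted p = 0.0134) and otherwise not (0.0704 to 0.120).

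Cenpf, a large protein that links kinetochores to the dynein system, measured 9.45, 9.20, 9.47 and 9.41 in controls 1 to 4. Its treated values were 8.97, 9.01, 9.08 and 8.98, again with no overlap. Cenpf fell by 0.37 ± 0.06 (SE; adjusted p = 0.0371, and 0.0358 with the block). It kept its call without control 2 (adjusted p = 0.00897) and lost it without any other array (0.0855 to 0.146).

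Kntc1 and Zw10 are subunits of the complex that brings dynein and Mad proteins to kinetochores, and Spdl1 is its dynein adaptor. Kntc1 differed by -0.31 ± 0.07 (SE), with groups apart and an adjusted p of 0.0922, or 0.0389 with the block. Zw10, which also acts in membrane traffic between mitoses, differed by -0.05 ± 0.09 (SE), and its sign turned when jasplakinolide 4 was left out (0.029). Spdl1 measured 6.30, 6.24, 6.17 and 6.24 in controls 1 to 4 and 6.31, 6.29, 6.24 and 6.17 with jasplakinolide. It was the one member below the olfactory receptor level of 6.75. Its difference was 0.01 (95% interval -0.10 to 0.12), and it turned to -0.012 after cyclic loess.

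Of the 6 checkpoint signalling genes 1 fell, Bub1b, against 0.336% of all genes. All 6 means were lower, against 43.6% of all genes, with a median log2 difference of -0.25. Bub1b encodes BubR1, a part of the complex that inhibits the anaphase-promoting complex. It measured 9.83, 9.76, 9.85 and 9.80 in controls 1 to 4 and 9.55, 9.43, 9.54 and 9.36 with jasplakinolide. The control values were close together, and every treated value was lower. Bub1b fell by 0.34 ± 0.06 (SE; adjusted p = 0.0315, and 0.0260 with the block). It kept its call without control 2 (adjusted p = 0.0417) and lost it without any other single array (0.0587 to 0.120) and without control 2 and jasplakinolide 4 together (0.0514).

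The kinases Bub1 and Ttk (Mps1) start checkpoint signalling at the kinetochore. They differed by -0.33 ± 0.08 and -0.32 ± 0.09 (SE), and Bub1 passed with the block (adjusted p = 0.0302). Mad2l1 encodes Mad2, the protein that changes shape to bind Cdc20. It was at 11.69 to 11.75 in control and 11.51 to 11.58 with jasplakinolide, and differed by -0.19 ± 0.04 (SE; adjusted p = 0.0842). Its standard error was the smallest of the list. Mad1l1, which holds Mad2 at the kinetochore, differed by -0.08 ± 0.04 (SE). Bub3, the adaptor that brings Bub1 and BubR1 to Knl1, had the smallest difference of the group. It measured 11.48, 11.35, 11.39 and 11.39 in controls 1 to 4 and 11.43, 11.34, 11.39 and 11.30 with jasplakinolide, with groups that overlapped. The difference was -0.04, with a 95% interval of -0.15 to 0.07.

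The shugoshins Sgo1 and Sgo2a guard cohesin at the centromere until anaphase. Sgo1 measured 9.47, 9.08, 9.39 and 9.31 log2 in controls 1 to 4 and 8.96, 8.96, 9.16 and 8.89 with jasplakinolide. Jasplakinolide 3 lay above control 2, and the difference was -0.32 ± 0.09 (SE; adjusted p = 0.211). Sgo2a measured 11.20, 10.98, 11.09 and 11.10 in controls 1 to 4 and 10.85, 10.75, 10.89 and 10.67 with jasplakinolide. Its groups were apart, and the difference of -0.30 ± 0.07 (SE) did not pass (adjusted p = 0.0870) except with the block (0.0474).

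Other genes of centromeres and of anaphase control were read as whole lists. Of 12 further centromere and kinetochore genes measured, none passed (limma, with or without the block), and the median log2 difference was -0.08. At an unadjusted p under 0.05, 3 of the 12 were lower, against 4.71% of all genes. The largest differences were those of Zwilch (-0.24 ± 0.07, SE), the third subunit of the complex of Zw10 and Kntc1, Trip13 (-0.23 ± 0.06), which takes checkpoint complexes apart, and Pmf1 (-0.15 ± 0.05), a subunit of the Mis12 complex. Of the 4 genes of the chromosomal passenger complex, which corrects faulty attachments, 1 fell, against 0.336% of all genes. Groups did not overlap in any of the 4, all lower, against 3.29% of all genes. Its kinase Aurkb fell by 0.30 ± 0.05 (SE; adjusted p = 0.0224), and passed among the fits without one array when control 2 was left out (0.0375; otherwise 0.0562 to 0.0864). Birc5 (survivin) and Cdca8 (borealin) differed by -0.26 ± 0.05 and -0.23 ± 0.08 (SE).

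The anaphase-promoting complex is the target of the checkpoint. Of 21 genes of this complex and its partners 1 fell, against 0.336% of all genes, and the median difference was -0.02. With the block 2 fell, against 1.08% of all genes. Cdc20, the activator that checkpoint proteins hold, fell by 0.39 ± 0.05 (SE; adjusted p = 0.00989), and lost its call without control 4 (0.0581). Espl1 (separase) differed by -0.29 ± 0.06 and passed with the block (adjusted p = 0.0325), and Fbxo5, an inhibitor of the complex, differed by -0.19 ± 0.07 (SE). Of 13 genes of cohesin and its regulators none passed in either fit, and the median was -0.05. At an unadjusted p under 0.05, 3 of the 13 were lower, against 4.71% of all genes. Those 3 were Esco2 (-0.35 ± 0.10, SE) and Cdca5 (-0.25 ± 0.09), which act on cohesin in S phase, and the core subunit Rad21 (-0.13 ± 0.04), whose groups did not overlap. Smc3, another core subunit, differed by -0.13 ± 0.07 (SE).

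The median log2 difference of 8 general proliferation markers measured was -0.23, close to the -0.26 of the 39. Of the 8 markers 3 fell, against 0.336% of all genes (5 with the block, against 1.08%). These 3 were Ccnb2 (cyclin B2, -0.31 ± 0.05, SE), Plk1 (polo-like kinase, -0.30 ± 0.05) and Top2a (topoisomerase, -0.29 ± 0.05). Top2a and Plk1 lost their calls in 7 of the 8 fits without one array and Ccnb2 in 6 (adjusted p 0.0518 to 0.144). The list's mean level was 11.14 to 11.24 log2 on the control arrays and 10.93 to 11.00 with jasplakinolide. All 7 replication licensing genes had lower means, against 43.6% of all genes, with a median of -0.16, and none passed in either fit. At an unadjusted p under 0.05, 6 of them were lower, against 4.71% of all genes. The largest differences were those of Mcm3 (-0.18 ± 0.06, SE), Mcm7 (-0.17 ± 0.04) and Mcm5 (-0.16 ± 0.05). Differences between these lists and the kinetochore genes were not tested, and whether the kinetochore genes moved apart from proliferation as a whole was not tested either.

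**Figure D4:**
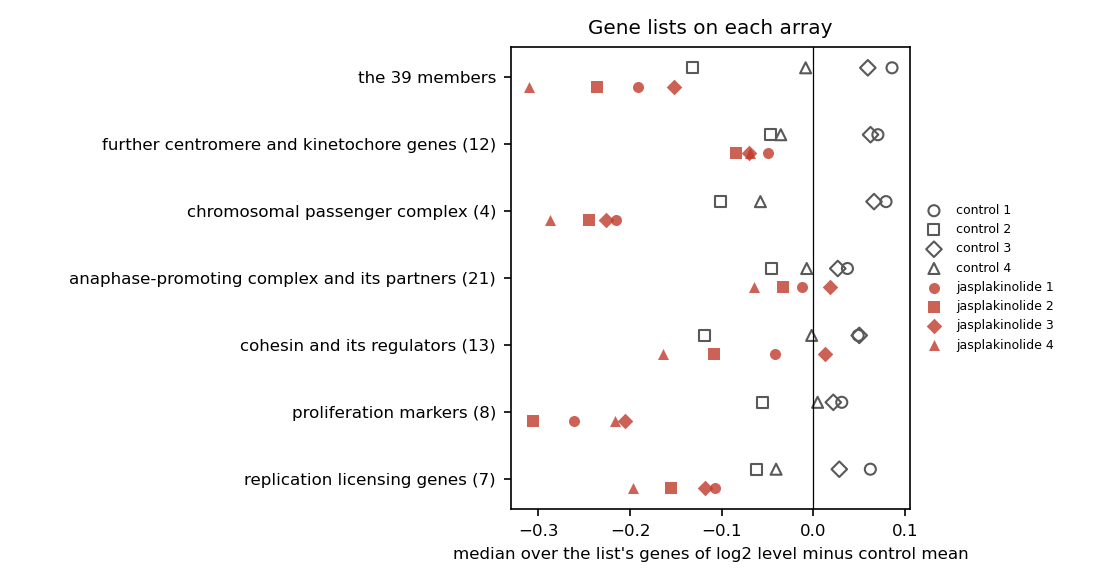
Median over each list's genes of the log2 level minus the control mean (x axis) on each array, for the 39 members and 6 related lists with their numbers of genes (y axis); open symbols are control and filled symbols jasplakinolide. The members, the passenger complex and both proliferation lists have all treated arrays below all controls, as do the further centromere and kinetochore genes by a narrow margin, while anaphase-promoting complex and cohesin genes overlap.

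The number of called members varied more between fits than their median did. Array weights gave 13 lower members, against 1.17% of all genes. A second quantile normalization and cyclic loess gave 10 each, against 0.732% and 0.813%. An intensity trend with a robust prior gave 9, against 0.828%. Restricting the test to the brighter 75% or 50% of genes gave 6 and 9, against 0.736% and 1.41%. Median centring left Cenpe alone, against 0.171%, and a threshold of 0.01 left none (limma, lowest adjusted p = 0.0308), against 0.0401%. Averaging probe sets or testing each probe set gave the same 4 genes, against 0.336% and 0.289%. Across the 20 fits 14 of the 39 members fell at least once, against 1.65% of all genes, and 25 never did. The 14 comprised 1 of 12 genes of the inner network, 3 of 9 of the KNL1-MIS12-NDC80 network, none of 3 of the Ska complex, 3 of 5 of the corona and 4 of 6 checkpoint genes, with Cenpa and both shugoshins. The fits share their arrays, so these counts are a description and not independent evidence.

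**Figure D5:**
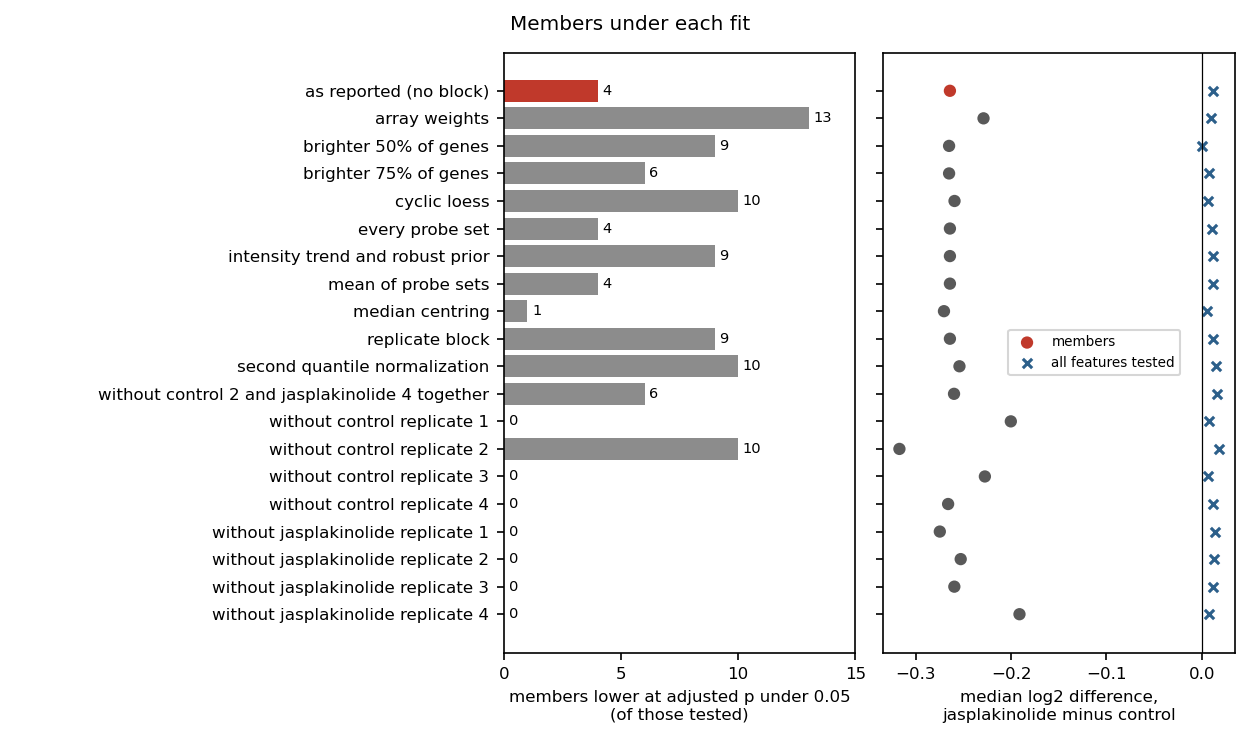
Number of members that fell at adjusted p under 0.05 (left) and median log2 difference, jasplakinolide minus control, of the members and of all features tested (right) under the reported fit and 19 alternatives (y axis). Counts run from 0 to 13, while the member median stays between -0.32 and -0.19.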

How the data were processed

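The deposited table holds log2 levels for 35556 probe sets. The submitters' processing notes name RMA and the Affymetrix Expression Console; no version or build is given in the sources used here. RMA corrects background, sets arrays to one distribution and summarises probes, which compresses differences of dim probe sets. Gene names came from the platform's annotation (21789 with 1 symbol, 1621 with several and 12146 with none, of which the last 2 kinds were not tested). For a gene with more than 1 probe set, the brightest over the 8 arrays was kept.

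The 2 groups of 4 arrays were tested with limma (3.58.1; R 4.3.3; two-sided moderated test, Benjamini-Hochberg over 19938 genes, threshold 0.05). Errors are limma's standard errors. No filter was used. Arrays correlated at 0.994 to 0.999 across genes, and none held the values of another. Figures were drawn with matplotlib 3.10.9.

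The members, the related lists and the markers were chosen with earlier results of these data known. All 39 members are named; array values are given for those past the test and for the largest and smallest difference of each role group, and up to 3 genes with the largest differences are named from each related list. Promoters were printed for called members with CHR letters, largest fall first, and for the member with the smallest difference. Genes named for passing with the block or at an unadjusted p, for groups that overlap or do not, for exceptions to the motif split or for turning sign were named after their values were seen.

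Both groups carry replicate numbers 1 to 4. After subtracting group means, arrays with the same number correlated across genes with r between 0.24 and 0.56, above 0.1 in all 4 pairs. Same-numbered samples were therefore treated as pairs, which comes from the data, not the labels. The pairing was not clean, as unlike-numbered arrays ran from -0.62 to 0.52. Control 2 correlated more with jasplakinolide 4 (0.52) than with jasplakinolide 2 (0.24). Jasplakinolide 4 also correlated more with control 2 than with control 4 (0.44). The blocked value is given where it moved a call or count.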

Additional observations from a re-analysis of the deposited data

Results flagged for a closer look

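Of 138 groups of 4 arrays looked at, 6 held an array far from the other 3 of its group by Dixon's ratio, and chance gives about 1 in 20. Among the kinetochore genes these were Nuf2 in jasplakinolide 4 (9.49 log2, next value 9.33), Spc24 in jasplakinolide 3 (7.62, next 7.88) and Bub1 in control 2 (10.72, next 10.96). Among the other genes they were Lmod1 in control 4 (8.15, next 8.23), Mcm5 in jasplakinolide 4 (10.41, next 10.55) and Pmf1 in jasplakinolide 2 (8.99, next 9.08).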

How the results depend on the processing

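The count of members that fell was 4 as reported. It was 9 with the replicate block, an intensity trend and robust prior or the brighter 50% of genes (34 members tested), 6 with the brighter 75% of genes (38 members) or without control 2 and jasplakinolide 4 together, 13 with array weights, 10 after cyclic loess or another round of quantile normalization, 1 after median centring and 0 at adjusted p under 0.01 (limma; 28 at an unadjusted p under 0.05). It was 4 with the mean of probe sets or every probe set, and 0 to 10 with one array left out. The causes were not tested, beyond fewer arrays or genes by construction. The log2 differences of Zwint, Zw10 and Spdl1 were near 0 and changed sign. With one array left out, Zwint ran from -0.0073 to 0.018, Zw10 from -0.112 to 0.029 and Spdl1 from -0.0096 to 0.039. Zw10 was at 0.035 with array weights and at 0.018 without control 2 and jasplakinolide 4 together, and Spdl1 at -0.012 after cyclic loess. The replicate block ended no call among the members and changed no other call than those given above. Of the 39 members, 38 lay above the olfactory receptor level, and Spdl1 below it.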
